A study of Mus musculus with 8 samples.

Results

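Enteroendocrine hormone and granule genes are described here in whole intestine of 8 C57BL/6 mice. The labels name 4 mice as Klebsiella recipients and the other 4 as Lactobacillus recipients, after 2 genera of gut bacteria. The 10 genes were taken by name from the 49585 gene identifiers of the expression table: Gcg, Pyy, Insl5, Tph1, Cck, Sst, Nts, Sct, Chga and Chgb. Each library came from total RNA of a separate mouse, numbered as labelled. Dose, duration, age and intestinal segment are not stated there, and none of the 8 libraries is labelled as coming from a mouse without such a transfer. Expression is in FPKM, which scales reads to the length of the gene and the depth of the library, so levels of different genes can be compared on this scale.

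Enteroendocrine cells are single hormone-secreting cells scattered through the gut epithelium. They store peptides in dense-core granules and release them towards nerves and blood when nutrients, bacterial products or other stimuli reach the lumen. Their hormones follow position along the gut. L cells make the proglucagon peptides (Gcg), peptide YY (Pyy) and, in the hindgut, insulin-like peptide Insl5. Enterochromaffin cells make serotonin, for which Tph1 encodes the rate-limiting enzyme. Other cells make somatostatin (Sst), cholecystokinin (Cck), neurotensin (Nts) or secretin (Sct), and nearly all carry the granule proteins chromogranin A (Chga) and chromogranin B (Chgb). Enteric neurons also transcribe Sst and Chgb, and mast cells can transcribe Tph1. In whole tissue, fewer cells of a type and less RNA per cell cannot be told apart.

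The DNA just before the start of 4 of these genes is printed because the results turn on them: Nts and Sct differed most between libraries, and Gcg and Pyy had opposite slopes on the position marker Hoxd13. The windows come from RefSeq on GRCm38.p6, run 5′ to 3′ on the strand of the gene and end before the start of both the RefSeq and the GENCODE gene model. Capitals mark E-boxes (CANNTG, the core bound by basic helix-loop-helix factors such as Neurod1) and the TATA box (TATAAA), each searched on both strands.
Nts, chr10:102490487-102490668, minus strand: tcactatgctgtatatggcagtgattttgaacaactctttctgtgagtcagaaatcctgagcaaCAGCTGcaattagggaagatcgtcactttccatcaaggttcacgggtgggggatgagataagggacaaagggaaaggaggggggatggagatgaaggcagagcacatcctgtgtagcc
Sct, chr7:141279134-141279383, minus strand: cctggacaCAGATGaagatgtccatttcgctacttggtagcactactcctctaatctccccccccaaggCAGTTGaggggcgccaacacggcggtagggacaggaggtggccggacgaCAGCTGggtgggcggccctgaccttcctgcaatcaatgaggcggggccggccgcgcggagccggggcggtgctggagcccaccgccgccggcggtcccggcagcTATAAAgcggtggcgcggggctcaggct
Gcg, chr2:62483654-62483903, minus strand: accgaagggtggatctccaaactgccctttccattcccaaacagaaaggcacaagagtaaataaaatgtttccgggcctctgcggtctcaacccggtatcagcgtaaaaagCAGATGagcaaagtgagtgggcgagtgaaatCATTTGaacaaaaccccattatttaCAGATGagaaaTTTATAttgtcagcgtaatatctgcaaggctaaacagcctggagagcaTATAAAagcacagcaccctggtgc
Pyy, chr11:102107833-102108082, minus strand: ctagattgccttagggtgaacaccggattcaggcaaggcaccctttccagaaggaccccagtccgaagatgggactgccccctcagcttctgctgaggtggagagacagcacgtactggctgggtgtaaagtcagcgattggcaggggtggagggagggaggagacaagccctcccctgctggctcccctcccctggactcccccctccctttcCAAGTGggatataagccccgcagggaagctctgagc
The windows of Sct and Gcg held 3 E-boxes each, and those of Nts and Pyy held 1 each. An E-box is common: 66.2% of 32851 promoter windows of 250 bases held at least 1, and 55.9% at the 182 bases printed for Nts. A TATA box began 28 bases before the end of the Sct window. The Gcg window held 2, beginning 72 bases (on the other strand) and 24 bases before its end, and 12.4% of all windows of that length held 1. Neither a TGACGTCA cyclic AMP response element (1.55% of windows of 250 bases) nor a TAATTA homeobox core (4.84%), both searched on each strand, was in these 4 windows. Such matches only describe the letters of these windows.

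On GRCm38, Gcg lies on chromosome 2 from 62474530 to 62483650, Pyy on chromosome 11 from 102106676 to 102107832, Insl5 on chromosome 4 from 103017872 to 103026842 and Tph1 on chromosome 7 from 46644641 to 46672537. Cck lies on chromosome 9 from 121489824 to 121495694, Sst on chromosome 16 from 23889573 to 23890958, Nts on chromosome 10 from 102481756 to 102490486 and Sct on chromosome 7 from 141278330 to 141279133. Chga lies on chromosome 12 from 102554969 to 102565028 and Chgb on chromosome 2 from 132781278 to 132795079. All 10 are protein coding, and 0 of them overlapped another gene of the GENCODE annotation.

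Clean reads numbered from 40455910 to 55447220 in a library, of which 95.04% to 96.59% mapped. The steps of the FPKM values gave back between 15375480 and 20953595 reads in genes per library. Read numbers given for single genes below are such recovered reads, which carry counting error besides the variation between mice and libraries. Libraries also stood apart within the groups. Hoxb6, a homeobox gene of more proximal hindgut, reached 40.2 FPKM in mouse 3 of the Klebsiella recipients and 45.2 in mouse 2 of the Lactobacillus recipients, against 1.16 to 3.87 in the other 6 libraries. Hoxd13, a homeobox gene of the distal hindgut, measured 46.3, 3.25, 2.20 and 8.03 FPKM across Klebsiella mice 1 to 4, and 43.9, 19.1, 27.3 and 39.2 across Lactobacillus mice 1 to 4. Ctrb1, a transcript of pancreatic acinar cells, reached 418 FPKM in mouse 2 of the Klebsiella and 112 in mouse 3 of the Lactobacillus recipients. The defining islet transcripts Ins1 and Ins2 reached at most 0.0615 and 0.101 FPKM in any library, and Slc30a8 was at 0 in all 8. The islet list as a whole, 7 genes with Ppy and Iapp among them, summed to 9.21 to 22.3 FPKM in Klebsiella and 11.0 to 27.0 in Lactobacillus libraries, most of it Ppy, which gut endocrine cells also make. Any 2 libraries correlated at 0.949 to 0.976 over the log2 values of all tested genes, and genes are not independent replicates.

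All 10 genes were detected in every library. The hormones of L cells were the most abundant. Insl5 was at 278 ± 62.2 FPKM (SD over the 8 libraries), Pyy at 192 ± 35.3 and Gcg at 101 ± 26.5. Pyy lay above Insl5 in Klebsiella mouse 1 and below it in the other 7 libraries. Both were measured in the same libraries, and the difference between them was not tested. Gcg ranked 3 in every library.

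The granule genes came next. Chgb was at 63.7 ± 16 FPKM and ranked 4 in every library. Chga, at 49.7 ± 12.4 FPKM, and Sst, at 41.2 ± 18.8, ranked next in that order except in Lactobacillus mice 2 and 4, where Sst was higher. Tph1 followed at 18.2 ± 4.34 FPKM, above Sst in Klebsiella mouse 4 alone. Sct (8.99 ± 8.03 FPKM), Cck (4.39 ± 1.81) and Nts (3.68 ± 6.18) had the lowest means. Sct lay above Nts in every library and above Cck in all but Klebsiella mouse 4. Cck lay above Nts except in Klebsiella mouse 3 and Lactobacillus mouse 2, the libraries with high Hoxb6. Reads behind these values ran from 24 to 72 for Cck, from 29 to 221 for Sct and from 2 to 338 for Nts, against 930 to 2018 for Gcg and 1770 to 4007 for Insl5.

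**Figure D1:**
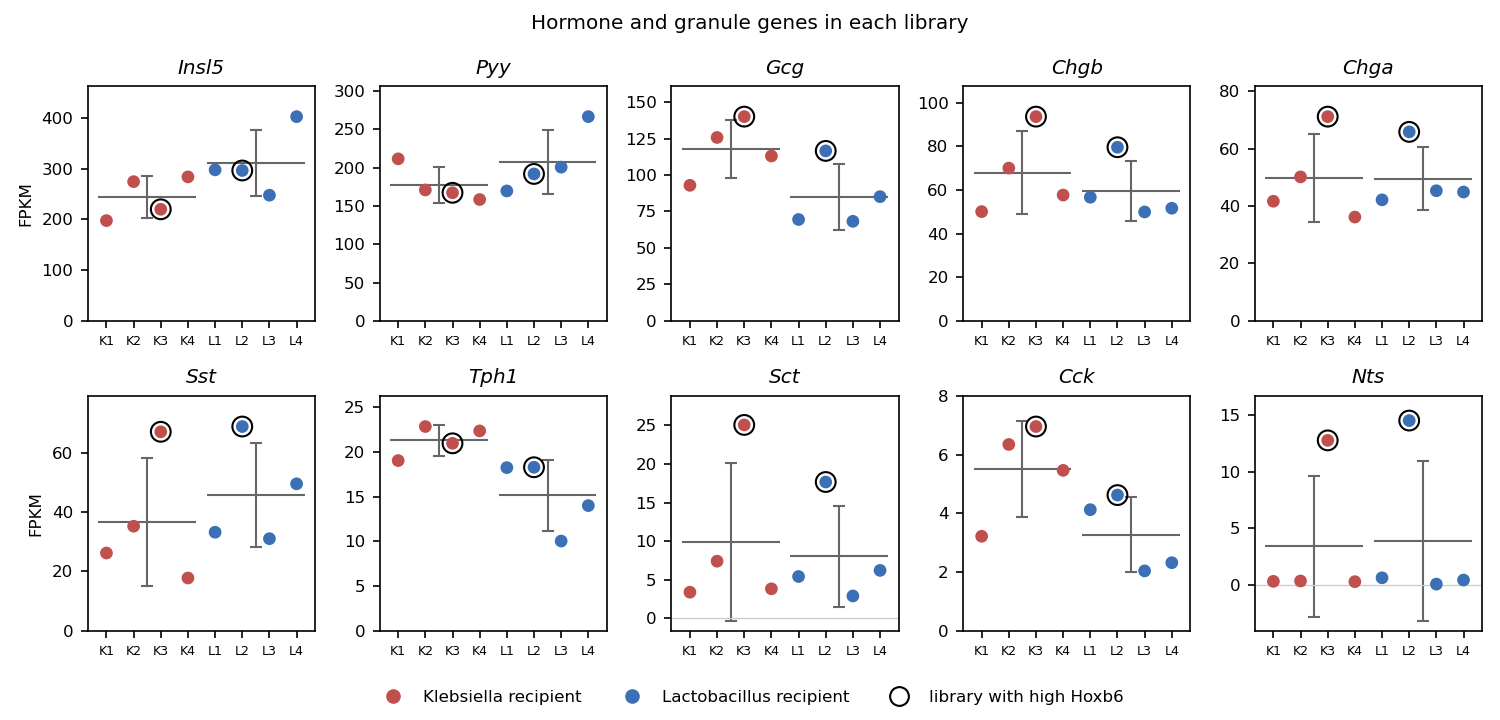
FPKM of each gene in each library (K1 to K4, Klebsiella recipients; L1 to L4, Lactobacillus recipients), with group means as lines, SD as bars (n = 4 each) and rings on the 2 libraries with high Hoxb6; every vertical axis has its own scale. Nts and Sct are highest in the ringed libraries of both groups, while Tph1 in Klebsiella recipients, at 19.1 to 22.9 FPKM, lies above every Lactobacillus library.

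Position along the gut was the first axis examined. The libraries were set against the Hoxb genes, which split them into 2 and 6, so these values are a description with no test. Nts encodes neurotensin, a peptide of the lower small intestine. Its levels were 0.323, 0.354, 12.8 and 0.294 FPKM across Klebsiella mice 1 to 4, and 0.637, 14.5, 0.0787 and 0.436 across Lactobacillus mice 1 to 4. It was abundant in the 2 libraries with high Hoxb6 and low elsewhere, and the lower of the pair was 20.1 times the highest of the other 6. Reads of Nts were 245 and 338 in that pair and 2 to 12 in the rest. Nts passed the filter on low values only through these 2 libraries.

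Secretin showed the same libraries on top. Values of Sct across Klebsiella mice 1 to 4 were 3.40, 7.41, 25.1 and 3.83 FPKM, and across Lactobacillus mice 1 to 4 they were 5.43, 17.7, 2.91 and 6.22. The lower of the pair was 2.38 times the highest of the other 6. Somatostatin followed with a smaller gap. In Klebsiella mice 1 to 4 the level of Sst was 26.2, 35.3, 67.2 and 17.8 FPKM, and Lactobacillus mice 1 to 4 had 33.3, 68.9, 31.1 and 49.6, so the pair lay at least 1.35 times above the rest.

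Both chromogranins were also highest in that pair. Klebsiella mice 1 to 4 had 41.7, 50.2, 71.2 and 36.2 FPKM of Chga, and Lactobacillus mice 1 to 4 had 42.2, 65.9, 45.4 and 44.9. Values of Chgb across Klebsiella mice 1 to 4 were 50.1, 70.0, 93.6 and 57.7 FPKM, and across Lactobacillus mice 1 to 4 they were 56.7, 79.6, 49.9 and 51.6. The gaps were narrow, 1.31 times for Chga and 1.14 times for Chgb. Nts is left out of the counts that follow, because it entered the tested genes only through these 2 libraries. Of the other 9 genes 4 (Sct, Sst, Chga and Chgb) were higher in both libraries with high Hoxb6 than in the other 6, and 5.19% of the 16865 tested genes were. Sct alone of these 9 was more than 2 times the highest of the other 6, against 0.356% of all tested genes, and 0 of the 9 were lower in both, against 1.77%. The shares of all tested genes still hold genes that entered as Nts did.

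Insl5, Pyy and Tph1 did not follow the Hoxb genes, and Gcg and Cck did so in part. Insl5 was at 220 and 297 FPKM in the 2 libraries with high Hoxb6, within the 198 to 403 of the other 6. Pyy was at 167 and 192 FPKM there, within 158 to 267. Gcg, at 140.0 and 117 FPKM, lay in the upper part of the range but overlapped Klebsiella mouse 2 at 126. Tph1 was at 21 and 18.3 FPKM, within 10.04 to 22.9, and Cck was at 6.96 and 4.63, against 2.04 to 6.35. In each recipient group the library with high Hoxb6 held the most Gcg and the most Cck. The mean of the pair over the median of the other 6 was 1.44 for Gcg and 1.58 for Cck. That ratio was 1.57 for Chga and 1.60 for Chgb, against 1.05 for Tph1, 0.97 for Pyy and 0.92 for Insl5.

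**Figure D2:**
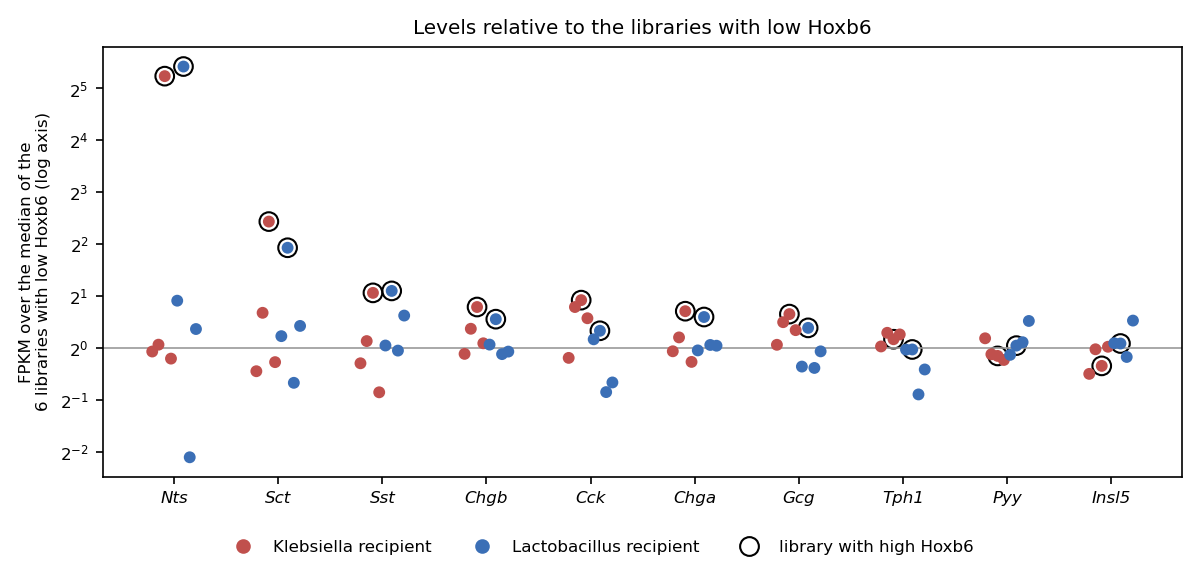
FPKM of each gene in each library divided by the median of the 6 libraries with low Hoxb6, on a log axis, with genes ordered by the mean of the 2 ringed libraries with high Hoxb6. The ringed points stand far above the rest for Nts and Sct, just above for Sst, Chgb and Chga, and among the others for Tph1, Pyy and Insl5.

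Some genes of the other endocrine lists were higher in the same pair. Over all tested genes, 5.19% were above the other 6 libraries and 1.77% below. Of 14 tested granule and prohormone processing genes, 7 were above and 0 below. They included Pcsk1, a prohormone convertase, at 11.6 and 8.69 FPKM against 2.62 to 6.58, Scg3, a secretogranin, at 10.6 and 11.6 against 4.38 to 7.90, and Vgf, a granin-like protein, at 3.57 and 2.99 against 0.775 to 2.37. The tachykinin gene Tac1 was at 21.8 and 24.7 FPKM against 10.4 to 19.0. These 4 genes were picked after their values were seen. Of 16 tested enteroendocrine transcription factors 0 were above and 1, Pax6, was below, at 0.804 and 0.864 FPKM against 0.92 to 1.85. Enteric neuron markers were higher there in part, with 4 of 10 tested markers above (Uchl1, Ret, Tubb3 and Nos1) and 0 below. The 11 neuron markers summed to 124 and 141 FPKM in the pair and to 44.5 to 120 in the other 6, with Klebsiella mouse 4 lowest. Their part in the levels of Sst, Chga, Chgb, Tac1 and the granule and prohormone processing genes was not tested.

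Hoxd13 gave a second, graded axis, and here Gcg, Cck and Chgb were the genes with the steepest relation to their error. In Klebsiella mice 1 to 4 the level of Gcg was 92.9, 126, 140.0 and 113 FPKM, and Lactobacillus mice 1 to 4 had 69.5, 117, 68.2 and 85.1. The 4 libraries with the lowest Hoxd13 (Klebsiella mice 2, 3 and 4 and Lactobacillus mouse 2) held the most Gcg. For each doubling of Hoxd13 + 0.5 FPKM, log2 Gcg differed by -0.20 (SE 0.05, limma unadjusted p 0.00298, adjusted p 0.905 over all genes). The corresponding Pearson r was -0.831 (exact permutation p 0.0133) and Spearman rho -0.762 (exact permutation p 0.0368, n = 8), and r was -0.646 without Klebsiella mice 2 and 3, the libraries farthest from the median of Hoxd13.

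Cck is the transcript of cholecystokinin. Its levels were 3.22, 6.35, 6.96 and 5.47 FPKM across Klebsiella mice 1 to 4, and 4.13, 4.63, 2.04 and 2.32 across Lactobacillus mice 1 to 4. It was highest in the same 4 libraries as Gcg. Its slope was -0.29 (SE 0.08, limma unadjusted p 0.00499, adjusted p 0.905 over all genes), with r of -0.814 (exact permutation p 0.0184), rho of -0.786 (exact permutation p 0.0279, n = 8) and r of -0.593 without those 2 libraries. Chgb had a slope of -0.16 (SE 0.05, limma unadjusted p 0.0116, adjusted p 1.00 over all genes), with r of -0.760 (exact permutation p 0.0282), rho of -0.762 (exact permutation p 0.0368, n = 8) and r of -0.410 without them. Among the 6 libraries with low Hoxb6, r was -0.815 for Gcg (exact permutation p 0.0694) with rho of -0.486 (exact permutation p 0.356). For Cck it was -0.758 (exact permutation p 0.104) with rho of -0.486, and for Chgb -0.858 (exact permutation p 0.0333) with rho of -0.60 (exact permutation p 0.242). The 2 of these 6 farthest from their median Hoxd13 were Klebsiella mice 2 and 4, at 3.25 and 8.03 FPKM. Without them r was 0.596 for Gcg, 0.794 for Cck and 0.430 for Chgb, so the negative relation within these libraries rested on those 2. The libraries left, Klebsiella mouse 1 and Lactobacillus mice 1, 3 and 4, spanned only 27.3 to 46.3 FPKM of Hoxd13.

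Pyy, the other hormone that L cells release with the proglucagon peptides, had a slope of the other sign. Klebsiella mice 1 to 4 had 211, 171, 167 and 158 FPKM, and Lactobacillus mice 1 to 4 had 169, 192, 201 and 267. The highest value was in Lactobacillus mouse 4 and the next in Klebsiella mouse 1. The slope was 0.09 (SE 0.04, limma unadjusted p 0.0703, adjusted p 1.00 over all genes). Its r was 0.616 (exact permutation p 0.101) and its rho 0.619 (exact permutation p 0.115, n = 8), and r was 0.571 without the 2 farthest libraries.

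Insl5, the most abundant of the hormones, had no passing relation with Hoxd13. Its levels were 198, 275, 220 and 284 FPKM across Klebsiella mice 1 to 4, and 298, 297, 248 and 403 across Lactobacillus mice 1 to 4. Klebsiella mouse 1, the library with the most Hoxd13, held the least Insl5. The slope was 0.05 (SE 0.07, limma unadjusted p 0.509), and its sign changed without Klebsiella mouse 3 or Lactobacillus mouse 4. The slopes of Chga (-0.10), Sst (-0.08), Sct (-0.36), Tph1 (-0.13) and Nts (-0.45) had unadjusted p between 0.0814 and 0.577. Over the 10 genes 8 slopes were negative and the median was -0.14, against -0.0049 over all 16864 genes tested, of which 45.6% had a positive slope. Nts, which passed the filter only through the high-Hoxb6 pair, is among the 8.

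At an adjusted p under 0.05 limma called 0% of all genes and 0 of the 10. At an unadjusted p under 0.05 there were 3 of the 10 (Gcg, Cck and Chgb, all negative), against 4.17% of all genes and 2.25% with a negative slope. After adjustment over the 10 relations with Hoxd13, 0 passed by r and 0 by rho. Hoxd13 was itself partly tied to group, being lower in 3 of 4 Klebsiella libraries than in any Lactobacillus library. Its log2 group difference was -1.97 (limma unadjusted p 0.0343, adjusted p 0.774), and that of the homeobox gene Hoxb13 was -0.62 (limma unadjusted p 0.0245, adjusted p 0.774). Of 13 tested position markers, these among them, 2 were positive and 11 negative, with a median of -0.61. With the recipient group as a covariate the slopes on Hoxd13 were -0.16 for Gcg, -0.24 for Cck, -0.20 for Chgb and 0.08 for Pyy.

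**Figure D3:**
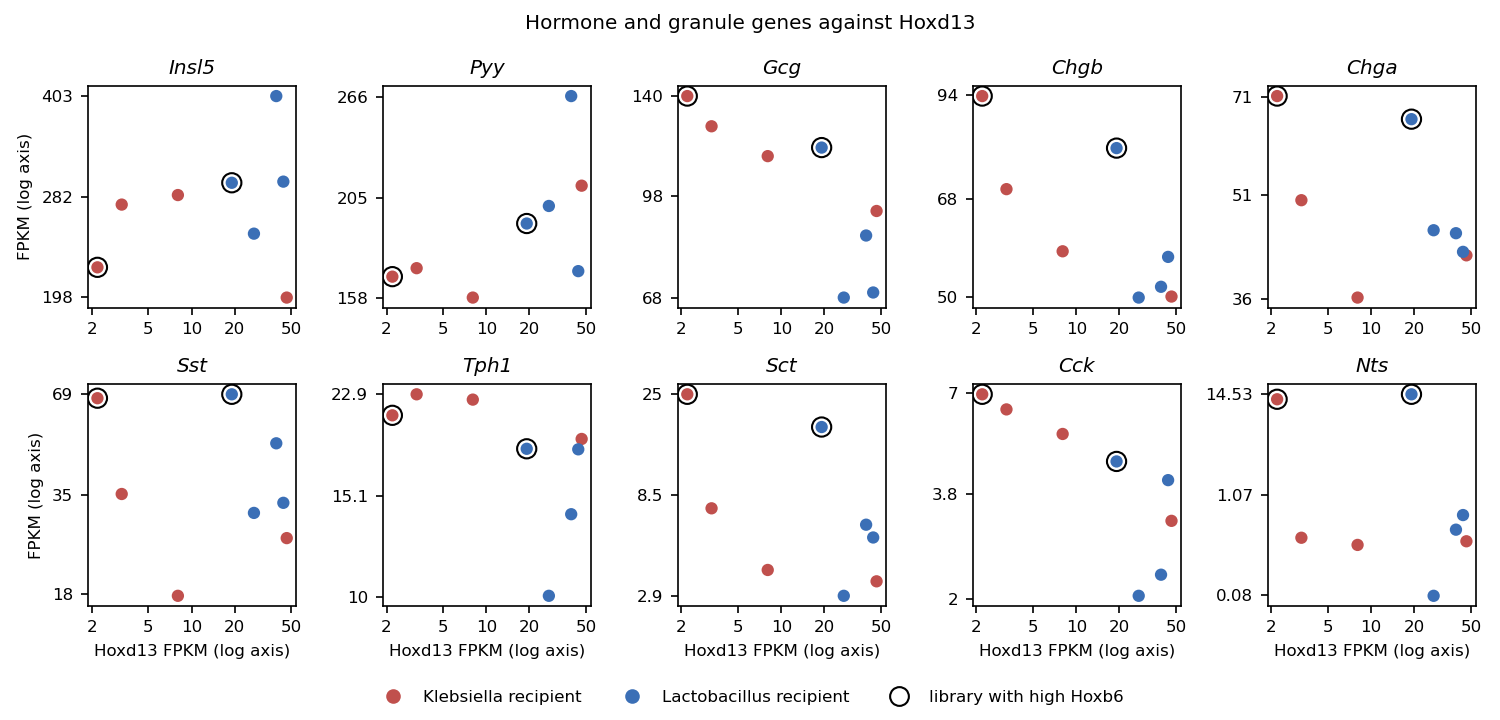
FPKM of each gene against Hoxd13 FPKM in the 8 libraries, both on log axes, coloured by recipient group and ringed where Hoxb6 was high. The r is between -0.831 and -0.760 for Gcg, Chgb and Cck, 0.616 for Pyy and 0.238 for Insl5.

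Recipient groups were compared next, and 3 of the 10 genes, Tph1, Gcg and Cck, came closest to a difference. Klebsiella mice 1 to 4 had 19.1, 22.9, 21 and 22.4 FPKM of Tph1, and Lactobacillus mice 1 to 4 had 18.3, 18.3, 10.04 and 14.0. The groups did not overlap, although Klebsiella mouse 1 and the highest Lactobacillus libraries were less than 1 FPKM apart. The means were 21.3 ± 1.71 and 15.2 ± 3.96 FPKM (SD, n = 4 each), with a log2 difference of 0.51 (SE 0.18, limma unadjusted p 0.0212, adjusted p 0.774). Over all genes 2.99% did not overlap between the groups and 1.19% were higher and 1.8% lower in every Klebsiella library, and Tph1 was the only one of the 10 to separate in this way. The log2 difference was 0.30 (limma unadjusted p 0.0809) without the 2 libraries with high Ctrb1.

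Ddc and Slc6a4, partners of Tph1 in serotonin handling, had differences of the other sign. Ddc, the decarboxylase that completes serotonin synthesis, averaged 70.7 ± 7.32 FPKM in the Klebsiella group against 90.7 ± 16 in the Lactobacillus group (SD, n = 4 each). Its log2 difference was -0.35 (limma unadjusted p 0.0298, adjusted p 0.774), and its slope on Hoxd13 was 0.125 (limma unadjusted p 0.0127). Slc6a4, the serotonin uptake transporter, measured 7.47, 6.56, 7.32 and 4.94 FPKM across Klebsiella mice 1 to 4, and 7.30, 10.8, 16.3 and 17.1 across Lactobacillus mice 1 to 4, a log2 difference of -0.86 (limma unadjusted p 0.00986, adjusted p 0.774). Its Lactobacillus mouse 1 lay within the Klebsiella range. Maoa, which breaks serotonin down, had a log2 difference of -0.19, and Tph2, the neuronal isoenzyme of Tph1, was at 0 in all 8 libraries. The storage genes Slc18a1 and Slc18a2 had log2 differences of 0.09 and -0.04. Of 6 tested genes of this list 2 were positive and 4 negative, 0 passed over all genes, and the median was -0.11. Mast cell markers were low, with the 8 genes summing to 2.12 to 5.24 FPKM in Klebsiella and 2.94 to 3.45 in Lactobacillus libraries, the tryptase Tpsab1 at 0 in all 8 and Cpa3 at most 0.624 FPKM. Their part in the level of Tph1 was not tested.

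Gcg averaged 118 ± 19.98 FPKM in the Klebsiella group and 84.8 ± 22.5 in the Lactobacillus group (SD, n = 4 each). The log2 difference was 0.49 (SE 0.19, limma unadjusted p 0.0291, adjusted p 0.774), and the groups overlapped through Lactobacillus mouse 2 at 117 FPKM and Klebsiella mouse 1 at 92.9. Cck averaged 5.50 ± 1.64 and 3.28 ± 1.29 FPKM, a log2 difference of 0.69 (SE 0.30, limma unadjusted p 0.0470, adjusted p 0.774), again with overlap. With log2 Hoxd13 as a covariate these differences were 0.18 (limma unadjusted p 0.394) for Gcg and 0.21 (limma unadjusted p 0.527) for Cck, and 0.43 (limma unadjusted p 0.122) for Tph1. Without the 2 libraries with high Hoxb6 they were 0.57 for Gcg, 0.73 for Cck and 0.62 for Tph1. Without the 2 with high Ctrb1 they were smaller, at 0.36 for Gcg (limma unadjusted p 0.153) and 0.44 for Cck (limma unadjusted p 0.237), as for Tph1 above. For these genes, for Ddc and for any other gene, the recipient group and the Hoxd13 level of the libraries cannot be fully told apart.

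Insl5 and Pyy had differences of the other sign. Insl5 averaged 244 ± 41.9 FPKM in the Klebsiella group and 311 ± 65.4 in the Lactobacillus group (SD, n = 4 each), with a log2 difference of -0.34 (SE 0.17, limma unadjusted p 0.0750, adjusted p 0.774), and was -0.21 without Lactobacillus mouse 4. Pyy averaged 177 ± 23.6 and 207 ± 41.7 FPKM, a log2 difference of -0.22 (SE 0.15, limma unadjusted p 0.184, adjusted p 0.781), which was -0.09 without Lactobacillus mouse 4. Sst had a log2 difference of -0.41 (SE 0.40), Chgb of 0.17 (SE 0.21) and Chga of -0.02 (SE 0.22). Sct (0.12, SE 0.66) and Nts (-0.08, SE 1.20) had errors far larger than their differences, and each group held 1 library with high Hoxb6.

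In all, 0 of the 10 passed at an adjusted p under 0.05 with limma, as did 0% of all genes, and voom on the recovered reads also called 0 genes. At an unadjusted p under 0.05 there were 3 of the 10, all higher in Klebsiella recipients, against 6.07% of all genes with 2.55% higher and 3.52% lower. Of the 10 differences 5 were positive and 5 negative, with a median of 0.05 against -0.02 over all 16865 genes. Nts, which passed the filter only through the high-Hoxb6 pair, is among the negative ones. Epithelial markers, whose cells include the endocrine ones, had 9 of 10 positive differences with a median of 0.17, and enteric neuron markers 1 of 10 positive with a median of -0.14. Summed epithelial markers were at 7039 to 9478 FPKM across the Klebsiella group and 6316 to 8508 across the Lactobacillus group, and summed neuron markers at 44.5 to 124 and 63.6 to 141, with no marker of either list at 0 in any library. Their part in these values was not tested. The labels number the mice but give no cage, donor or litter, and the p-values measure the spread between these 8 libraries.

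**Figure D4:**
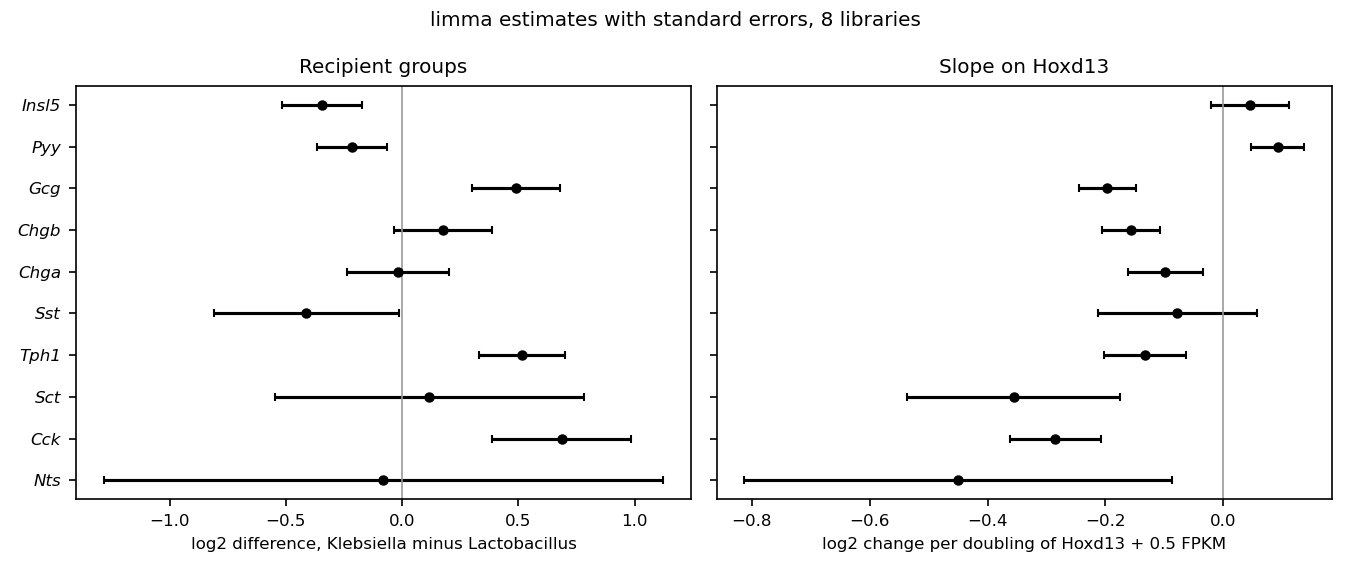
Log2 difference between recipient groups (left) and log2 slope on Hoxd13 (right) for each gene from limma over 8 libraries, as points with standard errors as bars. Tph1, Gcg and Cck lie on the positive side at left (0.51, 0.49 and 0.69), and Gcg, Cck and Chgb on the negative side at right (-0.20, -0.29 and -0.16).

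Endocrine genes beyond the 10 were read by list. Of 14 tested granule and prohormone processing genes 5 had a positive and 9 a negative group difference, with a median of -0.06 and 0 past the threshold. Cpe, the carboxypeptidase that trims prohormones, and Pam, which amidates peptides, were the most abundant, with log2 differences of 0.06 and -0.10. The smallest unadjusted p of this list was that of Ptprn2, a granule membrane phosphatase, with a log2 difference of 0.62 (limma unadjusted p 0.0667) and a slope on Hoxd13 of -0.27 (limma unadjusted p 0.00556, adjusted p 0.905).

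Transcription factors of the lineage were led by Foxa1, at 31.6 to 48.7 FPKM, and Foxa2, at 31.1 to 68.8 FPKM, which other epithelial cells also express. The others averaged from 0.328 to 5.47 FPKM. Of 16 tested, 8 were positive and 8 negative, with a median of -0.02. Isl1, a LIM homeobox factor of endocrine cells and neurons, was at 2.29 ± 0.458 FPKM in the Klebsiella group and 3.97 ± 0.977 in the Lactobacillus group (SD, n = 4 each) with no overlap, a log2 difference of -0.67 (limma unadjusted p 0.00835, adjusted p 0.774). Neurod1, which drives endocrine differentiation, was between 0.905 and 1.86 FPKM. Of the other gut hormones, the duodenal hormone gene Gip was at 0 in all 8 libraries, ghrelin (Ghrl) was at 0.987 to 3.17 FPKM, pancreatic polypeptide (Ppy) at 8.28 to 25.97 and Tac1 at 10.4 to 24.7. Their log2 group differences were 0.39 for Ghrl, -0.18 for Ppy and -0.26 for Tac1, and 0 of 4 tested passed.

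Endocrine cells sense luminal nutrients through receptors such as Ffar2, which binds short-chain fatty acids. Klebsiella mice 1 to 4 had 13.9, 23.8, 31.9 and 13.0 FPKM of Ffar2, and Lactobacillus mice 1 to 4 had 10.9, 21.3, 6.15 and 5.81. The groups overlapped through Lactobacillus mouse 2. The log2 difference was 0.97 (limma unadjusted p 0.0513, adjusted p 0.774), and the slope on Hoxd13 was -0.39 (limma unadjusted p 0.0104, adjusted p 1.00). Ffar4, a receptor for long-chain fatty acids, had a log2 difference of 0.59 (limma unadjusted p 0.0638) and a slope of -0.24 (limma unadjusted p 0.0113). Both receptors also lie on other epithelial and immune cells. Of 9 tested sensors 6 were positive, with a median of 0.06, and 0 passed.

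**Figure D5:**
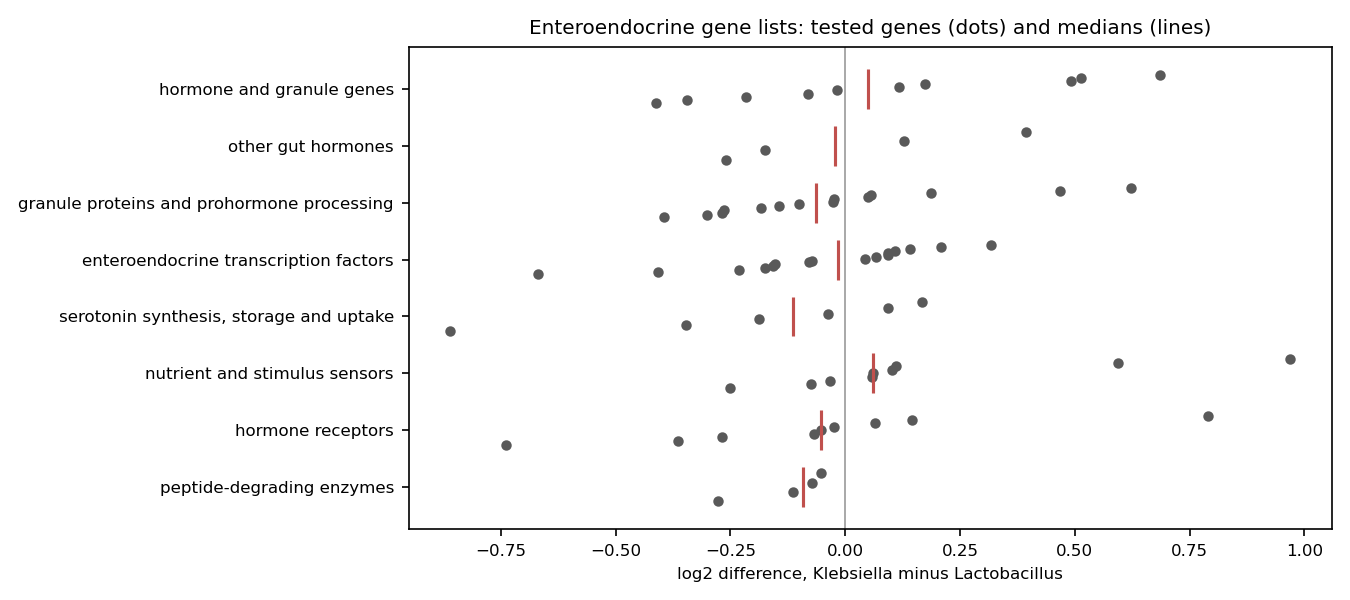
Log2 difference between Klebsiella and Lactobacillus recipients for each tested gene of 8 endocrine gene lists (dots) with the list medians (red lines). Medians lie between -0.11 and 0.06, and the widest single values are Ffar2 at 0.97 and Slc6a4 at -0.86.

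The 10 genes were also compared among themselves. Over 45 pairs and 8 libraries, 7 passed by Pearson r after adjustment over the pairs and 0 by Spearman rho. The count was 0 without the 2 libraries with high Hoxb6 and 14 after centring within recipient groups. It was 0 without any of Klebsiella mice 1, 2 or 3 or Lactobacillus mouse 2, 1 without Lactobacillus mouse 3 and 2 without Lactobacillus mouse 4. Of these pairs 6 joined Chga, Chgb, Sst, Sct and Nts, whose values fall into 2 and 6 libraries, so only the r within the 6 with low Hoxb6 is given. It was 0.755 for Chga and Sst (exact permutation p 0.0819, rho 0.714, exact permutation p 0.136, r 0.576 without the 2 farthest). Chgb and Sct had 0.697 (exact permutation p 0.0944, rho 0.771, exact permutation p 0.103, r 0.0831 without the 2 farthest), and Sct and Nts 0.671 (exact permutation p 0.131, rho 0.714, exact permutation p 0.136, r 0.724 without the 2 farthest). Nts had only 2 to 12 reads in these 6 libraries, so its r there carries much counting error. Lower values were those of Sst and Sct, at 0.588 (exact permutation p 0.235, rho 0.714, exact permutation p 0.136, r 0.755 without the 2 farthest), and Chga and Sct, at 0.505 (exact permutation p 0.322, rho 0.371, exact permutation p 0.497, r -0.0278 without the 2 farthest). Lowest of the 6 pairs were the chromogranins Chga and Chgb, at 0.330 (exact permutation p 0.501, rho 0.0286, exact permutation p 1.0, r -0.391 without the 2 farthest).

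The remaining pair was Cck and Tph1. Its r was 0.891 (exact permutation p 0.00107, adjusted p 0.0240) and its rho 0.857 (exact permutation p 0.0107, adjusted p 0.0536, n = 8), with r of 0.724 without Lactobacillus mice 3 and 4, the libraries with least Cck. Within the 6 libraries with low Hoxb6, r was as large, at 0.919 (exact permutation p 0.00972, adjusted p 0.281), and rho was 0.943 (exact permutation p 0.0167, adjusted p 0.25), so the call was lost there while the value was not smaller. Gcg and Cck had r of 0.824 (exact permutation p 0.0156, adjusted p 0.0687), rho of 0.905 (exact permutation p 0.00456, adjusted p 0.0536, n = 8) and r of 0.973 without the 2 farthest libraries. Between the 3 L-cell hormones 0 pairs passed. The r was -0.405 for Gcg and Pyy (exact permutation p 0.325, rho -0.452, exact permutation p 0.268, r -0.857 without the 2 farthest libraries). For Gcg and Insl5 r was -0.215 (exact permutation p 0.616, rho -0.286, exact permutation p 0.501, r -0.39 without the 2 farthest). For Pyy and Insl5 r was 0.398 (exact permutation p 0.325, rho 0.0714, exact permutation p 0.882, r -0.0421 without the 2 farthest).

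Genes with the most similar pattern were ranked by Pearson r of log2 values over the 8 libraries among 13733 named tested genes, as a description of the same libraries. Nearest to Nts were Osr2, a zinc finger factor (r 0.993), Slc51a, a basolateral bile acid transporter (r 0.985), and Acaa1b, a peroxisomal thiolase (r 0.982). Osr2 was at 17.1 and 22.2 FPKM in the 2 libraries with high Hoxb6 and at most 0.399 elsewhere. Slc51a was at most 0.390 FPKM outside that pair and Acaa1b at most 0.603. Like Nts, these genes entered the tested genes only through the pair. Their r near 1 follows from that split of the libraries and is no further support for it. Nearest to Sct was Abhd6, a lipase (r 0.993), and nearest to Sst were Car1, a colonic carbonic anhydrase (r 0.975), and Tac1 (r 0.97). Gcg was nearest to Gpr39, a zinc-sensing receptor (r 0.968), and Chga to Fbln7 (r 0.987) and Cartpt, a neuropeptide gene (r 0.986). The genes given for Sct, Sst and Chga were also highest in the 2 libraries with high Hoxb6, so the same split enters their r.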

How the data were processed

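The libraries were made with an Illumina TruSeq kit from Trizol RNA of frozen intestine, per the labels' protocols. CASAVA, HTSeq 0.6.0, STAR 2.5.1b and DESeq2 1.10.1 are named per the submitters' processing notes, without saying what each did. The authors' build was not given in the sources used here, nor was the gene annotation. The authors deposited FPKM values for 49585 identifiers, and read and mapping totals. Symbols for 49326 identifiers and positions came from GENCODE M21 (259 had no match).

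FPKM is not a count, so log2(FPKM + 0.5) was fitted with limma 3.58.1 in R 4.3.3 (mean-variance trend, two-sided, Benjamini-Hochberg over all genes, threshold 0.05) after keeping the 16865 genes that averaged 0.5 FPKM or more. Changes on this scale are understated for low genes. The fit took either the group (Klebsiella minus Lactobacillus) or log2 Hoxd13 as its term, over all 8 libraries. Correlations over libraries have two-sided exact permutation p-values, adjusted over 10 relations with Hoxd13 and 45 pairs. Whole reads were recovered from FPKM steps for 26962 of 26963 genes within a relative tolerance of 1e-12. The fits were tested on simulated data. Permutation tests used numpy 2.4.6 with ranks from scipy 1.17.1 under Python 3.11.15, tables pandas 2.3.3, and plots matplotlib 3.10.9.

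The genes described and the lists were chosen with earlier results of these data known. The rule for naming genes took the 10 members and, of each list, the 3 of highest mean FPKM, the 2 of smallest unadjusted p between groups and those at 0 in all libraries, with the 3 genes most like each member. All 10 members are given, but some other genes that meet the rule, such as Krt18, Cdx2 and Slc5a1, are not described. Genes named beyond this rule, such as Hoxb6, Neurod1, Ins1, Ins2, Pax6, Ret, Tubb3 and Nos1, were chosen after their values were seen. Alternatives were other pseudocounts, filters and scalings, voom on recovered reads, covariates, a block for mouse number and left-out libraries. The authors' table of 15 selected genes was not used here.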

Additional observations from a re-analysis of the deposited data

Results flagged for a closer look

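In 3 cases a library stood far from the other 3 of its group, by a gap that chance gives in about 1 of 20 groups. Nts was at 12.8 FPKM in Klebsiella mouse 3 against 0.294 to 0.354 in the others of that group. Nts was at 14.5 FPKM in Lactobacillus mouse 2 against 0.0787 to 0.637. Chga was at 65.9 FPKM in Lactobacillus mouse 2 against 42.2 to 45.4. These are the 2 libraries with high Hoxb6. The rule was applied to 48 sets of 4 libraries, the 10 genes and the sums of 14 lists in each group. At about 1 in 20, a similar number of flags is expected by chance from 48 sets. Nts entered the tested genes only through these libraries, so its flags are not separate evidence for the split by Hoxb6.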

How the results depend on the processing

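Calls over all genes stayed at 0 for the group contrast under every alternative run and at 0 for Hoxd13 under all but the one without Lactobacillus mouse 2, where 1 gene, none of the 10, was called (left-out libraries gave 0 to 1). Without that library 1 of the 10 relations with Hoxd13 passed by r after adjustment (0 to 1 over left-out libraries). Pairs of the 10 past adjustment were 7, with 0 without the 2 libraries with high Hoxb6, 14 after centring within groups and 0 to 7 over left-out libraries; the cause was not tested.

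Group differences changed sign for genes near 0. Chga (-0.02) was 0.0102 when rescaled to a constant total, 0.00806 with median-of-ratios factors and -0.20 to 0.13 over left-out libraries. Chgb was -0.23 with log2 Hoxd13 as a covariate. Sct (0.12) was -0.00769 without the high-Hoxb6 pair, -0.25 without the high-Ctrb1 pair, -0.999 with the covariate and -0.46 to 0.57 over left-out libraries. Nts was 0.0485 with voom and -1.08 to 0.96 over left-out libraries; it fell below the filter without the high-Hoxb6 pair. Slopes on Hoxd13 changed sign for Sst (0.0887 without the high-Hoxb6 pair, -0.14 to 0.0835 over left-out libraries), Nts (-0.78 to 0.0172) and Insl5 (-0.00302 without the pair, -0.0461 with the group as a covariate, -0.00345 to 0.10 over left-out libraries). Differences of Tph1 (0.30 to 0.62), Gcg (0.18 to 0.65) and Cck (0.21 to 0.90), and slopes of Gcg (-0.29 to -0.16), Cck (-0.46 to -0.24) and Chgb (-0.22 to -0.10), kept their sign under every alternative run.

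With the mouse number as a replicate block 0 genes were called. The deviations of same-numbered mice correlated at 0.189, -0.10, -0.0591 and -0.159, against -0.312 to 0.189 for mice of different numbers. The labels give only the number, and whether same-numbered mice shared anything else was not tested. Depth limits Nts outside the high-Hoxb6 pair (2 to 12 reads) and Cck (24 to 72).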

Other observations

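Receptors of these hormones were mostly low. Of 22 measured receptor genes 9 passed the filter, 3 with a positive and 6 with a negative log2 group difference, with a median of -0.05 and 0 past the threshold with limma. Sstr1, a somatostatin receptor, Htr4 and Htr3a, serotonin receptors, were the most abundant, with log2 differences of -0.36, -0.02 and -0.27. Npy1r, a receptor of the peptide YY family, had a log2 difference of -0.74 (limma unadjusted p 0.0695, adjusted p 0.774), and Cckar, the cholecystokinin A receptor, one of 0.79 (limma unadjusted p 0.108, adjusted p 0.774). Cckar was at 4.03 and 3.10 FPKM in Klebsiella mice 2 and 3 and at 0.624 to 1.11 in the other 6 libraries, and its slope on Hoxd13 was -0.40 (limma unadjusted p 0.0031, adjusted p 0.905). The peptide-degrading enzymes Dpp4, which inactivates incretin peptides, Thop1 and Nln had log2 differences of -0.11, -0.07 and -0.05, and 0 of the 4 genes of that list passed.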
